A study of Mus musculus with 144 samples.

Results

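The transcripts of mouse liver without the clock gene Bmal1 were compared between the dark and the light hours of the day. The comparison used the 36 total RNA libraries labelled Bmal1-/- of the 144 libraries in the series. In it, 18 libraries came from the dark (6 each at ZT14, ZT18 and ZT22) and 18 from the light (6 each at ZT2, ZT6 and ZT10), where ZT, zeitgeber time, counts the hours after lights on. The members were taken by genotype, time and fraction as the sample titles and labels give them, not by any measured value. The mice, Bmal1-/- and wild type (WT) alike, were male C57BL/6J animals kept on a cycle of 12 h light and 12 h darkness and never short of food or water, and their age was not given. The 36 wild-type total RNA libraries, at the same 6 times with 6 libraries each, served to show where Bmal1-/- differs. Liver RNA was sequenced from the 3′ end of each transcript (QuantSeq), so a gene's count is a number of reads next to its poly(A) tail. The labels do not say whether Bmal1 was lost in the whole body or in part of it, which exons the allele lacks, or whether each library is a separate animal. The p-values therefore measure the spread between these libraries.

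As background, BMAL1 pairs with CLOCK, binds E-box elements and switches on Per, Cry, Nr1d1, Nr1d2 and Dbp. PER and CRY proteins then block that pair, and the REV-ERB proteins made from Nr1d1 and Nr1d2 repress the gene of BMAL1 itself, Arntl, so the loop closes in about a day. A liver in an animal also receives daily signals from outside this loop, among them the light cycle, meals, glucocorticoids and body temperature. Heat shock chaperones and the cold-inducible RNA-binding protein gene Cirbp are known for following body temperature, and lipid synthesis genes for following food intake. The question of the comparison is what daily change is left when BMAL1 is missing.

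Promoter sequence is shown for 2 groups of genes that moved over the day in wild type, so that the elements named above can be seen. The stretches are from RefSeq GRCm38.p6 promoters (250 bases before to 50 bases after a start site), printed 5′ to 3′ on the gene's strand, with capitals for the motif matches. The heat shock element was searched as GAANNTTCNNGAA on both strands, and copies were allowed to overlap. Of 32851 promoters, 198 (0.603%) held it. Of 20 heat shock genes listed, 16 had a promoter in the table and 4 of these held it (Chordc1, Hspd1, Hspe1 and Hsph1). For Hsph1 (chr5:149636287-149636316, minus strand) the capitals lie at positions 37 to 49 after the start site, for Chordc1 (chr9:18292259-18292288, plus strand) they run from -4 to 19, and for Hspe1 (chr1:55088038-55088097, plus strand) from -89 to -72.
Hsph1: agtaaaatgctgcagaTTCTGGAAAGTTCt
Chordc1: accgGAACGTTCGGGAAAATTCCTGAAgca
Hspe1: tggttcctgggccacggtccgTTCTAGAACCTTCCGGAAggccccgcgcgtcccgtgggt
The E-box was searched as CACGTG, which reads the same on both strands, and 2349 of the 32851 promoters (7.15%) held it. Of 16 clock genes listed, 13 had a promoter in the table and 4 held it (Bhlhe41, Ciart, Cry1 and Per1). For Cry1 (chr10:85185082-85185141, minus strand) it lies at -60 to -55 from the start site, and for Per1 (chr11:69098756-69098815, plus strand) at -166 to -161.
Cry1: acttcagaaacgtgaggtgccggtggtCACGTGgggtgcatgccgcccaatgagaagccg
Per1: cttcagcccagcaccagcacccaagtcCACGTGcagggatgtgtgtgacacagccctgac
A match describes these letters alone, and their absence from a window says nothing of the factor.

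Gene counts per Bmal1-/- library summed to between 5100247 and 14281894 in the light (median 7706444) and between 4379549 and 14094553 in the dark (median 8169414). The 10 hepatocyte markers were all counted, summing to between 72700 and 147000 CPM (counts scaled to 1 common library size) in the light libraries and between 65700 and 118000 CPM in the dark ones. In summed CPM, 6 erythroid markers ran from 171 to 3530 in the light and from 27.7 to 5470 in the dark, and 8 adipocyte markers from 1090 to 9880 and from 50.2 to 8960. Only 1 of the 8 adipocyte markers averaged enough counts to be tested in Bmal1-/-, so that sum is mostly 1 gene and gives no adipocyte share. Of the 6 erythroid markers, 5 did. Whether what lies behind these sums took part in the results below was not tested, and in bulk liver fewer cells of a type and less RNA per cell cannot be told apart. The Bmal1-/- libraries of ZT18 replicates 5 and 6 stood apart. Hsd3b5, a steroid dehydrogenase typical of male liver, had 0.963 and 7.39 CPM there against 23.9 to 368 CPM in the other 34 libraries. Sult1e1, an estrogen sulfotransferase gene, had 105 and 112 CPM against at most 64.5 CPM. Igfbp1, a gene that fasting raises, had 521 and 474 CPM against 11.1 to 377 CPM (median 42.0) in the other 34. The library of ZT22 replicate 6 had 491 CPM of Xist, the RNA of the inactive X chromosome of females, against at most 1.28 CPM in the other 35. The same library had 92.9 CPM of the Y-linked gene Ddx3y, within the 64.8 to 131 CPM of the other 35 Bmal1-/- libraries. These libraries are all dark ones. Where leaving out ZT18 replicates 5 and 6 moved a change described below by more than its SE or across the threshold, the value without them stands beside it. In wild type, ZT22 replicate 5 had 408 CPM of Xist and 0.38 CPM of Ddx3y, against its label male. The wild-type counts of genes and of usage sites called between dark and light are also given without it. Wild-type counts for pairs of times, any time, single sites and gene lists include it. Wild-type ZT2 replicate 4 had the lowest median correlation with the other libraries of its genotype (0.8705), and was kept.

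Arntl, the gene of BMAL1, was still read in all 36 libraries, from 5.17 to 15.8 CPM (median 10.4) in the light libraries and from 7.52 to 18.6 CPM (median 11.6) in the dark libraries. Light and dark overlapped almost fully. The highest Arntl values were 18.6 CPM in ZT22 replicate 6 and 17.8 and 16.9 CPM in ZT18 replicates 5 and 6, the dark libraries described above. Its time-point means, with these libraries included, lay between 9.16 CPM at ZT2 and 13.1 CPM at ZT18, and the dark minus light log2 change was 0.12 (SE 0.12). In wild type the same change was 1.57 (SE 0.23, edgeR adjusted p 1.27e-05), and the changes of the 2 genotypes differed (-1.45, adjusted p 1.39e-04). Reads from the 3′ end do not show whether the altered part of the gene is present, so this level is no check of the genotype. Nr1d1 and Dbp, which BMAL1 drives, were near the lowest wild-type level at every time in Bmal1-/-, as described below.

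No gene passed the threshold between dark and light in Bmal1-/-. In edgeR's quasi-likelihood test over 12126 genes, 0 were called (0%), the smallest adjusted p was 0.951, and 452 genes (3.73%) were under 0.05 before adjustment, where 5% of the tests is 606. DESeq2 called 0 with 478 at an unadjusted p under 0.05, and limma with sample quality weights called 0 with 696. Without ZT18 replicates 5 and 6 edgeR called 0, with 589 at an unadjusted p under 0.05. The same contrast in wild type called 1104 of 11964 genes (9.23%), 571 higher (4.77%) and 533 lower (4.46%) in the dark. Precision was alike in both genotypes, with a median SE of the log2 change of 0.121 in Bmal1-/- and 0.118 in wild type. The 95% confidence interval of the Bmal1-/- change lay within 1.5-fold in either direction for 10331 genes (85.2%) and within 2-fold for 11837 (97.6%), so larger changes lay outside the intervals of these genes. The median log2 change over all genes was 0.0015. For each gene given below by its light and dark ranges, the ranges overlapped in Bmal1-/-.

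Time points 12 h apart were also compared, since a short change would be diluted in the mean of 3 times. ZT14 against ZT2, ZT18 against ZT6 and ZT22 against ZT10 each called 0 of 12126 genes (0%) by edgeR, with 530, 597 and 267 genes at an unadjusted p under 0.05. In wild type these pairs called 647 (5.41%), 615 (5.14%) and 876 (7.32%) of 11964. For a single pair of times the median SE was 0.209 in Bmal1-/-, and 6021, 6043 and 6438 genes had an interval within 1.5-fold.

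Clock genes had nearly level values over the day in Bmal1-/-. Of 16 activators and repressors of the clock, 13 had enough counts to be tested in Bmal1-/- and 0 were called (0 at an unadjusted p under 0.05), with a median log2 change of 0.091, 11 of them above 0 and 2 below. Their changes ran from -0.12 to 0.18. In wild type 15 were tested, and 6 were higher and 3 lower in the dark, against 4.77% and 4.46% of all genes. For 7 of 16 the change differed between genotypes, against 2.3% of all 12082 genes tested for that difference. Of the 7 tested in Bmal1-/- that wild type called, all 7 wild-type values lay outside the Bmal1-/- interval. Over all genes this held for 954 of the 1089 that wild type called.

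Cry1, a repressor of the loop, ran from 34.98 to 68.2 CPM (median 52.9) in the light libraries and from 40.2 to 93.4 CPM (median 58.4) in the dark libraries in Bmal1-/-, and the dark and light ranges overlapped. In wild type it ran from 3.03 to 20.5 CPM (median 8.14) in the light and from 13.7 to 55.6 CPM (median 28.2) in the dark. The log2 change was 0.15 (SE 0.079, interval -0.013 to 0.31) in Bmal1-/- and 1.86 (SE 0.15) in wild type, with an adjusted p of 1.32e-10 for the difference. The lowest Bmal1-/- library, at 34.98 CPM, was above the highest wild-type light library, at 20.5 CPM. Per2, the other arm of the repressor complex, ran from 13.8 to 38.7 CPM (median 27.7) in the light libraries and from 16.1 to 42.6 CPM (median 31.6) in the dark libraries, again overlapping. Its time-point means spanned 22.9 to 32.8 CPM in Bmal1-/- and 8.33 to 55.4 CPM in wild type, and the log2 changes were 0.17 and 1.22 (difference adjusted p 0.00915). The Bmal1-/- change of Per2 without ZT18 replicates 5 and 6 was 0.26 (SE 0.099, unadjusted p 0.0111), not called, and the difference passed (adjusted p 0.0216). Per1, whose E-box is printed above, changed by 1.14 in wild type and had 0.18 (SE 0.21) in Bmal1-/-, and that difference did not pass (adjusted p 0.0984, and 0.034 without those 2 libraries).

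Dbp, a transcription factor gene with E-boxes under direct control of BMAL1, ran from 1.42 to 4.77 CPM (median 2.94) in the light libraries and from 1.14 to 3.88 CPM (median 2.36) in the dark libraries. The 2 ranges overlapped, and the highest of the 36 libraries had 4.77 CPM. In wild type the Dbp time-point means went from 1.05 CPM ± 0.8604 (SD, n = 6) at ZT2 to 97.6 CPM ± 28.1 at ZT10, while in Bmal1-/- they stayed between 2.42 and 3.22 CPM. Nr1d1, which encodes REV-ERB alpha, was too low for the test, from 0 to 2.45 CPM (median 0.555) in the light libraries and from 0 to 1.85 CPM (median 0.562) in the dark libraries, against 41.3 CPM ± 8.58 (SD, n = 6) at ZT6 in wild type. Nr1d2, which encodes REV-ERB beta, ran from 3.49 to 8.85 CPM (median 4.93) in the light libraries and from 2.73 to 14.98 CPM (median 5.28) in the dark libraries, with a log2 change of 0.091 (SE 0.18) against -1.37 in wild type (difference adjusted p 6.65e-04). Its change was -0.17 (SE 0.15) without ZT18 replicates 5 and 6, and the difference passed (adjusted p 0.00464). Nfil3, a repressor of D-box genes, had -0.12 (SE 0.11) against 0.65 (difference adjusted p 7.41e-04).

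**Figure D1:**
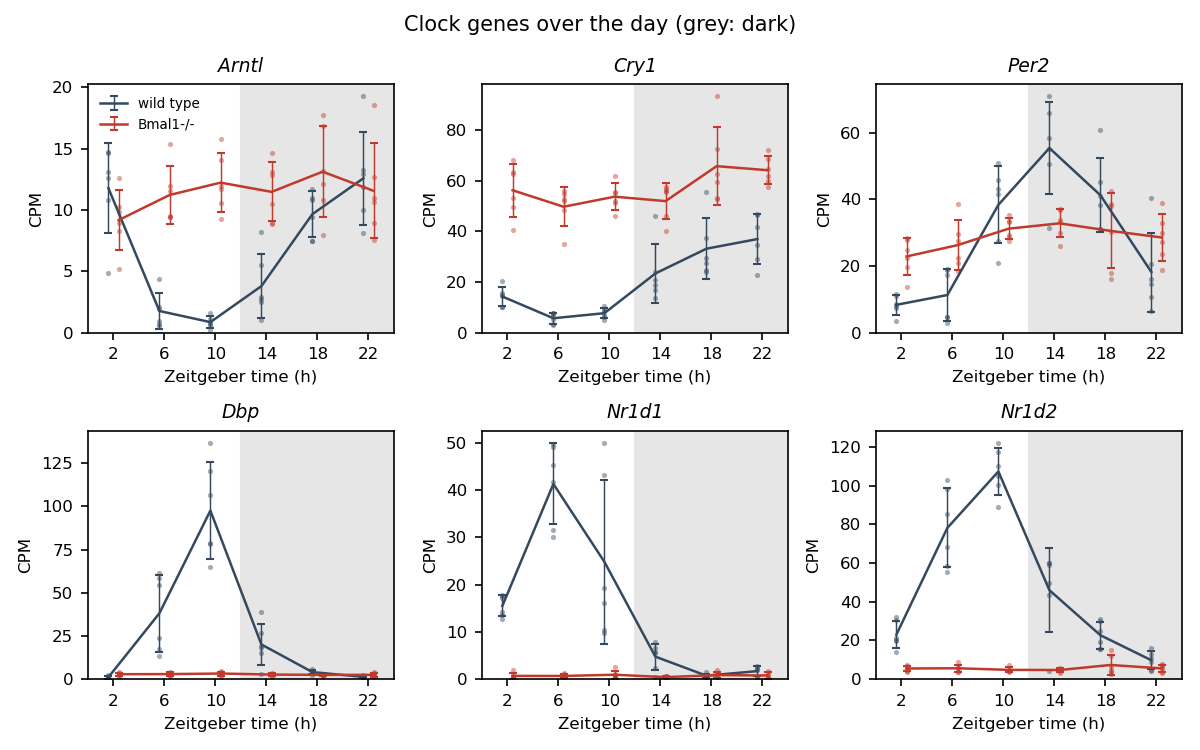
Level in CPM (y axis) of 6 clock genes against zeitgeber time in hours (x axis) in wild type (dark blue) and Bmal1-/- (red). Points are libraries, lines join time-point means with SD bars (n = 6), grey marks the dark; the red means stay nearly level, high for Cry1 (49.7 to 65.7 CPM) and low for Dbp (2.42 to 3.22 CPM). The Cry1 mean at ZT18 includes 93.4 and 72.5 CPM in replicates 5 and 6.

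The direct output factors of the clock were not called either. All 12 listed genes were tested in Bmal1-/- and 0 were called (1 at an unadjusted p under 0.05), with a median of 0.032. In wild type 5 of the 12 rose and 1 fell in the dark, against 4.77% and 4.46% of all genes. The change differed between genotypes for 4, against 2.3% of all genes. Usp2, a deubiquitinase, had 0.22 (SE 0.19) in Bmal1-/- and 1.46 in wild type (difference adjusted p 0.0214). Tspan4, a tetraspanin, had -0.25 (SE 0.15) and 0.87 (adjusted p 3.68e-05). Hlf, a PAR bZIP factor related to Dbp, had the smallest unadjusted p of the 12 in Bmal1-/- (0.00879), from 32.1 to 70.1 CPM (median 47.8) in the light libraries and from 43.8 to 86.9 CPM (median 58.9) in the dark libraries. Its ranges overlapped, and its changes of 0.23 and 0.22 in Bmal1-/- and wild type did not differ past the threshold (adjusted p 0.97).

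Heat shock genes, most of which rose in the dark in wild type, lay around 0 in Bmal1-/-. Of 20 listed, 19 were tested, and in wild type 16 of them rose in the dark with a median log2 change of 0.70, against 4.77% of all genes called higher. In Bmal1-/- 0 were called (1 at an unadjusted p under 0.05), 10 lay above 0 and 9 below, and the median was 0.0032. The change was lower in Bmal1-/- for 11 of the 19, by the test of the difference, against 1.07% of all genes. The Bmal1-/- interval was within 1.5-fold for 15 of 19, against 85.2% of all genes tested. It excluded the wild-type value in 15 of the 16 that rose there, against 954 of all 1089 genes called in wild type.

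Hsph1, a large heat shock protein gene, ran from 20.4 to 47.8 CPM (median 32.5) in the light libraries and from 20.6 to 49.5 CPM (median 31.9) in the dark libraries in Bmal1-/-. Its ranges nearly coincided. The log2 change was 0.044 (SE 0.12, interval -0.203 to 0.29) against 1.44 (SE 0.15) in wild type, where it ran from 7.92 to 43.9 CPM (median 19.8) in the light and from 30.2 to 97.3 CPM (median 59.6) in the dark (difference adjusted p 5.78e-06). Hsp90aa1, the inducible HSP90, ran from 265 to 569 CPM (median 346) in the light libraries and from 242 to 521 CPM (median 391) in the dark libraries, with 0.065 (SE 0.11) against 1.27 (difference adjusted p 6.87e-06). Chordc1, an HSP90 partner, had -0.075 against 0.71 (3.97e-04), and the cochaperones Dnajb1 and Bag3 had -0.054 against 0.77 (7.23e-04) and -0.028 against 0.77 (0.00362). Hspe1, the mitochondrial cochaperonin, had -0.033 against 0.24, and there the difference did not pass (0.263). Among the promoters shown, the 3 genes with a heat shock element thus had log2 changes between -0.075 (Chordc1) and 0.044 (Hsph1) in Bmal1-/-.

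Hspa8, the constitutive HSP70, was the member with an unadjusted p under 0.05 in Bmal1-/- (0.0165). It ran from 27.5 to 83.97 CPM (median 70.7) in the light libraries and from 34.5 to 133 CPM (median 86.6) in the dark libraries. In 9 of the 18 dark libraries it was above every light library, while the other 9 lay within the light range, and the log2 change was 0.37 (SE 0.15) against 0.78 in wild type, with no difference past the threshold (adjusted p 0.246). Its Bmal1-/- means were lowest at ZT6 (52.8 CPM) and highest at ZT18 (95.3 CPM). Hspa1b, a stress-induced HSP70, had 0.27 (SE 0.27) against 1.44, and the difference did not pass (adjusted p 0.0727). Leaving out ZT18 replicates 5 and 6 gave Hspa1b 0.45 (SE 0.199, unadjusted p 0.0305), not called. Reads of its near-identical copy Hspa1a may be counted with it. Without the Bmal1-/- libraries of ZT18 replicates 5 and 6 the group had a median of 0.036, with 15 of 19 above 0, 0 called and 2 at an unadjusted p under 0.05.

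Cirbp, which cold induces, moved the opposite way to the chaperones in wild type (-0.87, SE 0.13, adjusted p 1.07e-05). In Bmal1-/- it ran from 8.04 to 22.1 CPM (median 14.3) in the light libraries and from 7.52 to 77.5 CPM (median 13.9) in the dark libraries, with a log2 change of 0.200 (SE 0.21), and the genotypes differed (adjusted p 0.00679). The high end came from the 2 libraries that stood apart, at 77.5 and 47.0 CPM against 7.52 to 22.5 CPM in the other 34. Without them the change was -0.22 for Cirbp and also -0.22 for Rbm3, neither called, and the genotype difference of Cirbp still passed (adjusted p 0.0325). Rbm3, the related cold-inducible gene, had 71.4 and 64.6 CPM in those libraries against 12.1 to 33.2 CPM, with 0.11 (SE 0.18) over all libraries and 0.075 in wild type.

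**Figure D2:**
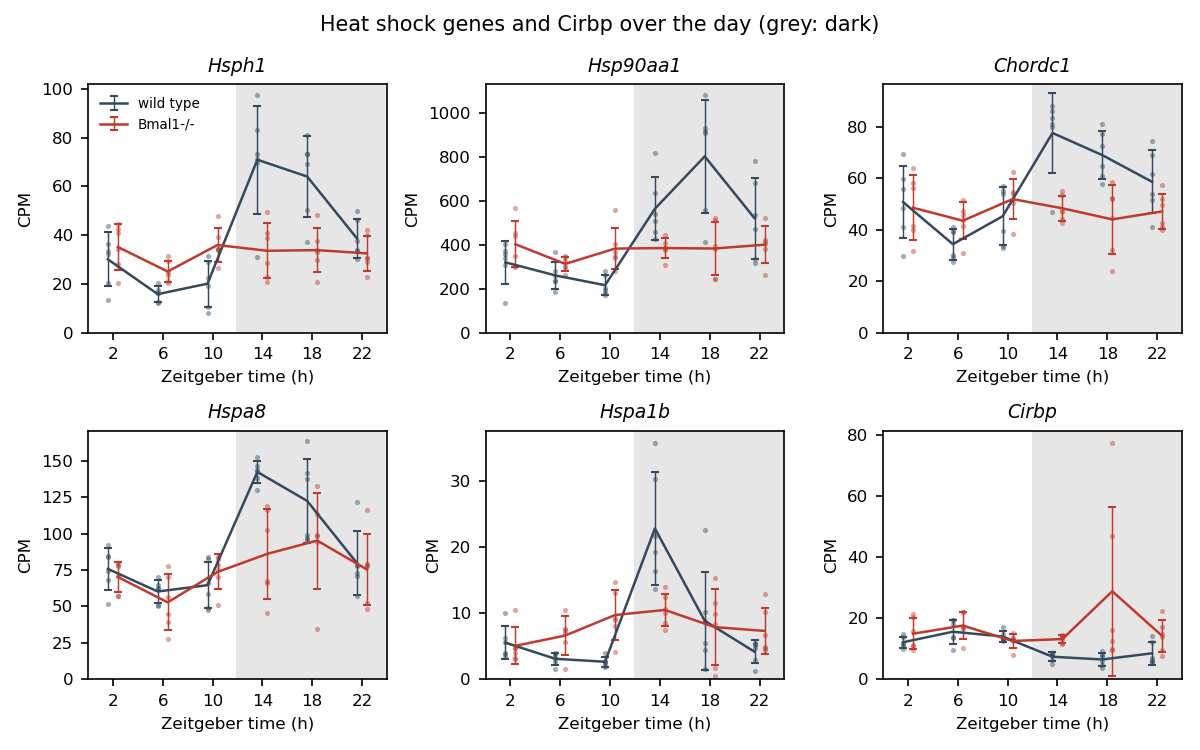
CPM (y axis) of 5 heat shock genes and Cirbp against zeitgeber time in hours (x axis), wild type in dark blue and Bmal1-/- in red. Points are libraries, lines join means with SD bars (n = 6), grey marks the dark; the wild-type rise of Hsph1 at ZT14 (70.9 CPM) has no counterpart in Bmal1-/- (33.6 CPM), and 2 libraries at ZT18 lift the Cirbp mean.

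The genes that wild type called were followed in Bmal1-/-. Of these, 1089 were tested there, and along the wild-type direction their median log2 change was 0.425 in wild type and 0.0079 in Bmal1-/- (quartiles -0.063 and 0.091). In Bmal1-/-, 577 of them (53.0%) had the wild-type direction, 52 had an unadjusted p under 0.05, and for 954 the interval excluded the wild-type value. That count takes the wild-type value without its own error, and the test of the difference passed for 250 of the 1089. Of all 11702 genes tested in both genotypes, 49.4% had the wild-type direction and 437 had an unadjusted p under 0.05 in Bmal1-/- by edgeR. For 3458 of these 11702 the interval excluded the wild-type value. For the 67 genes with at least 2-fold change in wild type, the medians were 1.30 and 0.102, 46 (68.7%) had the same direction, and 65 intervals excluded the wild-type value. Of these 67, 37 passed the test of the difference. These wild-type sizes come from genes picked for passing in the same libraries, which favours large values. Of all 12082 genes tested for the difference itself, 278 passed (2.3%), 149 (1.23%) with a higher and 129 (1.07%) with a lower change in Bmal1-/-, and 252 of these were also called in wild type. This count was 274 without ZT18 replicates 5 and 6 of Bmal1-/-, 222 without the 2 libraries high in Xist, when wild type called 1028, and it ran from 103 to 328 when a replicate number was left out.

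**Figure D3:**
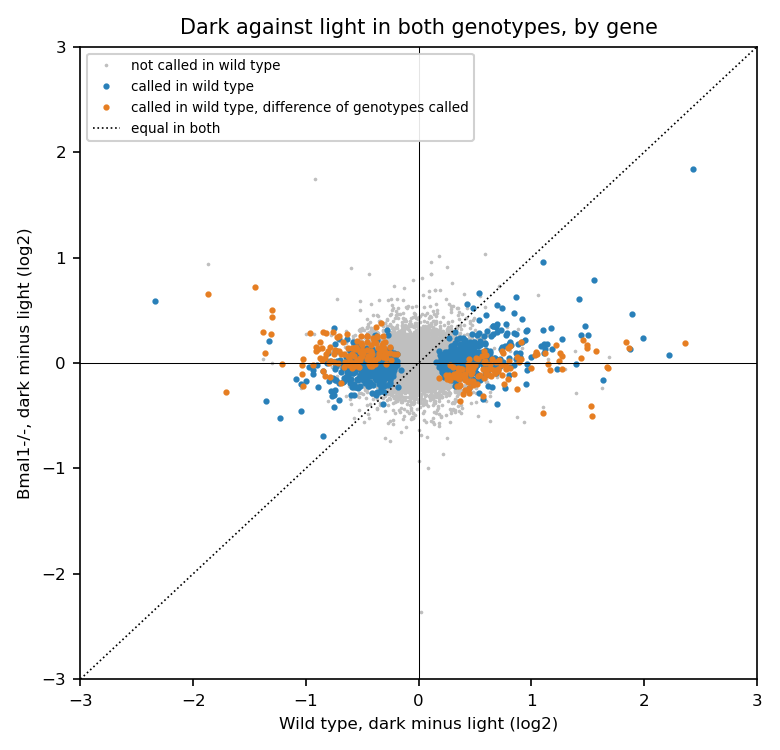
Log2 change from light to dark in wild type (x axis) and in Bmal1-/- (y axis), 1 point for each of 11702 genes tested in both, with 1 (Xist) outside the axes. Blue and orange points were called in wild type, orange ones also for the difference of genotypes; they spread along the x axis and stay close to 0 on the y axis, off the dotted line of equal change.

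The largest lower changes in Bmal1-/- by this test were those of Cdkn1a, Acnat2, Angptl8, Cry1 and 9030619P08Rik. Cdkn1a, which encodes the cell cycle inhibitor p21, ran from 60.99 to 312 CPM (median 184) in the light libraries and from 125 to 386 CPM (median 197) in the dark libraries in Bmal1-/-, with overlapping ranges. In wild type it ran from 1.01 to 46.1 CPM (median 6.84) in the light and from 3.13 to 116 CPM (median 37.6) in the dark, so the lowest Bmal1-/- library, at 61.0 CPM, lay above every wild-type light library. Its log2 change was 0.19 (SE 0.17) against 2.36 (SE 0.37), a difference of -2.16 (adjusted p 6.63e-04). Angptl8, a liver hormone that feeding induces, had -0.41 (SE 0.27) against 1.53 (difference adjusted p 7.41e-04), and Acnat2, an acyl-CoA acyltransferase, had -0.505 (SE 0.36) against 1.54 (0.00883). The largest higher changes were those of Nr1d1, Calcoco1, Fbxo21, Nr1d2 and Dbp. Fbxo21, an F-box gene, ran from 15.6 to 31.9 CPM (median 24.1) in the light libraries and from 14.4 to 77.2 CPM (median 25.1) in the dark libraries in Bmal1-/- and had 0.28 (SE 0.15) against -1.31 (2.81e-05). Calcoco1, a coactivator gene, had 0.29 (SE 0.28) against -1.38 (0.00306). The Bmal1-/- interval included 0 in the 9 of these 10 genes that were tested, and Nr1d1 was too low for the test. With ZT18 replicates 5 and 6 left out the Bmal1-/- changes were -0.14 for Calcoco1, 0.0087 for Fbxo21 and -0.902 for 9030619P08Rik, the last at an unadjusted p of 0.0143, and their differences still passed.

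The wild-type genes of largest size, 10 higher and 10 lower in the dark, included, besides those already given, Fkbp5, Mt2, Cyp2c69, Cyp17a1 and Cyp2a4 on the higher side. Cyp17a1 and Cyp2a4, cytochromes that are higher in female liver, lost their wild-type call without the library high in Xist (adjusted p 0.083 and 0.205), and they had medians under 2 CPM in light and dark in Bmal1-/-. Gpcpd1, a glycerophosphodiesterase, fell in the dark in wild type (-1.04). In Bmal1-/- it ran from 5.58 to 26.7 CPM (median 11.1) in the light libraries and from 5.82 to 25.9 CPM (median 11.03) in the dark libraries, with a change of -0.019 (SE 0.19) and a called difference (adjusted p 0.00582). Rnf152, a ubiquitin ligase, had -0.100 (SE 0.13) against -1.03 (0.00105). Clec2h, a lectin-like receptor gene, was too low for the test in Bmal1-/-, with medians of 0.666 CPM in the light and 1.33 CPM in the dark against 10.6 and 2.91 CPM in wild type. Rgs16, a regulator of G protein signalling, had a Bmal1-/- change of 0.59 with an SE of 1.03, from medians of 0.1298 and 0 CPM against 4.65 and 0.501 CPM in wild type, and 8430408G22Rik, which had -1.33 in wild type, had 0.21 (SE 0.495) with no called difference (0.165). Its Bmal1-/- change was -0.68 without ZT18 replicates 5 and 6.

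Lipid synthesis genes lay below 0 in Bmal1-/- nearly throughout, without a call. Of 22 lipogenesis genes, 20 were tested, 18 were lower in the dark, 0 were called and 4 were under 0.05 before adjustment (Fasn, Elovl5, Me1 and Fads2). Their median log2 change was -0.31, against 0.0015 over all genes. Their intervals were wide, with 6 of 20 within 1.5-fold, against 85.2% of all genes. In wild type 2 of 21 rose, Lpin1 among them, against 4.77% of all genes, and the median was 0.15. Fasn, the fatty acid synthase, ran from 39.7 to 1056 CPM (median 129.97) in the light libraries and from 30.5 to 287 CPM (median 102) in the dark libraries. At ZT2, 2 light libraries lay above every dark one, the other 16 were within the dark range, and the change was -0.699 (SE 0.32, p 0.0377) against 0.074 in wild type (difference adjusted p 0.456). Elovl5, a fatty acid elongase, had -0.39 (SE 0.17) and -0.43 in wild type. Lpin1, a phosphatidate phosphatase, rose in the dark in wild type (0.73) and had 0.32 (SE 0.33) in Bmal1-/- (difference adjusted p 0.716), or -0.12 without ZT18 replicates 5 and 6. The difference between genotypes was called for 1 of the 21 lipogenesis genes tested for it, against 2.3% of all genes. Without ZT18 replicates 5 and 6 the median was -0.25, with 18 of 20 lower and 0 at an unadjusted p under 0.05. It was -0.084 in replicates 1 to 3 alone (13 of 20 lower) and -0.45 in replicates 4 to 6 alone (19 of 20).

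Cholesterol synthesis genes were lower in the dark in 25 of 25, with 0 called and 1 at an unadjusted p under 0.05. The median log2 change was -0.27 with a range from -0.36 to -0.037. In wild type it was 0.13, and 3 of 25 genes rose, against 4.77% of all genes. The difference between genotypes was called for 1 of the 25, against 2.3% of all genes. These genes are known to share a regulator, SREBP2, so the 25 directions are not independent of each other. Hmgcs1, the synthase of HMG-CoA, ran from 202 to 1149.9 CPM (median 453) in the light libraries and from 129 to 1217 CPM (median 418) in the dark libraries. Its change was -0.27 (SE 0.29) against -0.21 in wild type (difference adjusted p 0.979). Sqle, the squalene epoxidase, ran from 26.2 to 95.5 CPM (median 46.7) in the light libraries and from 5.801 to 95.5 CPM (median 53.3) in the dark libraries with -0.304 (SE 0.29), so its medians and its fitted change differed in sign. Without ZT18 replicates 5 and 6 the median was -0.22 with 25 of 25 lower, and it was -0.28 in replicates 1 to 3 (24 lower) and -0.22 in replicates 4 to 6 (22 lower).

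Genes of protein folding in the endoplasmic reticulum lay mostly above 0 in Bmal1-/-. Of 19 tested in Bmal1-/-, 17 lay above 0, 0 were called, also 0 at an unadjusted p under 0.05, with a median of 0.11. In wild type 9 of 20 rose, against 4.77% of all genes, with a median of 0.32. The difference was called for 1 of 19, against 2.3% of all genes. That gene, Hspa5, the chief chaperone of this compartment, had 0.032 (SE 0.13) against 0.71 (adjusted p 0.0119). Hyou1, another chaperone there, ran from 11.9 to 42.1 CPM (median 21.7) in the light libraries and from 7.85 to 53.2 CPM (median 31.4) in the dark libraries and had 0.37 (SE 0.19, p 0.0545) against 0.69 (difference adjusted p 0.577), and Manf, a secreted stress factor, had 0.27 (SE 0.18) against 0.78 (0.342). The wild-type value lay outside the Bmal1-/- interval in 6 of the 9 genes that rose, against 954 of all 1089 called in wild type. Without ZT18 replicates 5 and 6 the median was 0.19, with 18 of 19 above 0, 0 called and 4 at an unadjusted p under 0.05.

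Glucocorticoid targets also lay mostly above 0, with wide errors. All 16 were tested in Bmal1-/-, with 12 above 0, 0 called, 1 at an unadjusted p under 0.05 and a median of 0.16. In wild type 6 of 15 rose and 1 fell, against 4.77% and 4.46% of all genes. Tsc22d3, the glucocorticoid-induced leucine zipper, ran from 70.2 to 159.9 CPM (median 100.2) in the light libraries and from 69.7 to 146 CPM (median 122) in the dark libraries, with 0.094 (SE 0.096) against 1.26 in wild type (difference adjusted p 9.99e-07). Fkbp5, a cochaperone of the receptor, had 0.26 (SE 0.35) against 1.503, and the difference did not pass (0.116). Its Bmal1-/- change was -0.29 without ZT18 replicates 5 and 6, and the difference passed (adjusted p 0.00308). Sgk1, a kinase, had 0.38 (SE 0.17, p 0.0343) against 0.16. Klf9, a Krueppel-like factor, fell in the dark in wild type (-0.46), had 0.25 (SE 0.17) in Bmal1-/- and differed between genotypes (0.0474), a call lost without those 2 libraries (0.138). Without ZT18 replicates 5 and 6 the median was 0.078, with 10 of 16 above 0, and in replicates 1 to 3 alone it was 0.013.

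Ribosome biogenesis genes were tight around 0. The 20 tested genes had a median of -0.0042 in Bmal1-/-, 10 above and 10 below 0, with 0 called and 1 at an unadjusted p under 0.05. Of their intervals 20 of 20 were within 1.5-fold, against 85.2% of all genes. In wild type 7 of 20 rose, against 4.77% of all genes, and 3 differed between genotypes, against 2.3% of all genes. Nolc1, a nucleolar chaperone, had -0.047 (SE 0.16) against 0.999 (adjusted p 0.0214), Nop56, a box C/D small nucleolar RNP core protein, had 0.040 against 0.91 (0.0348), and Nop16 had 0.019 against 0.59 (0.00266). The difference of Nop56 missed the threshold without ZT18 replicates 5 and 6 (0.0593).

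Genes of fasting and PPAR alpha had a median of 0.12 over 23 tested, 18 above 0, with 0 called and 0 at an unadjusted p under 0.05. Cyp4a10, a fatty acid hydroxylase of a family of near-identical copies, ran from 10.9 to 303 CPM (median 31.01) in the light libraries and from 4.12 to 2293 CPM (median 50.3) in the dark libraries, and its change of 1.03 had an SE of 0.57. The top value, 2293 CPM, and the next, 624 CPM, came from the 2 libraries that stood apart, and without them the change was 0.066 (SE 0.51). Plin5, a lipid droplet protein, had 0.203 (SE 0.17) against 0.91 (difference adjusted p 0.0437), and -0.040 without those 2 libraries. For glucose output and insulin response, 20 were tested with 0 called and a median of 0.013. Igfals, which carries insulin-like growth factors in blood, ran from 59.5 to 111 CPM (median 82.8) in the light libraries and from 51.1 to 124 CPM (median 72.5) in the dark libraries and had -0.25 (SE 0.091, p 0.00835) against 0.41 in wild type, so the signs were opposite (difference adjusted p 0.00795). Ppp1r3b, a glycogen targeting subunit, had -0.063 (SE 0.18) against 1.16 (0.00362), and 0.032 without those 2 libraries. For bile acids, 16 were tested with 0 called, 2 at an unadjusted p under 0.05 (Abcb11 and Nr1h4) and a median of -0.016. Abcb11, the bile salt export pump, had -0.22 (SE 0.078, p 0.00771) and fell in wild type by 0.44 on the log2 scale, with no difference past the threshold (0.404). Cyp7a1, the rate-limiting enzyme of bile acid synthesis, rose in the dark in wild type (0.95), had -0.195 (SE 0.26) in Bmal1-/- and missed the threshold for the difference (0.0509), which passed without those 2 libraries (0.0456). Of ATF4 targets, 12 were tested with 0 called, and Trib3, a pseudokinase, fell in the dark in wild type (-1.87) against 0.66 (SE 0.43) in Bmal1-/- (difference adjusted p 0.00101). The remaining lists (serum response, amino acid breakdown, xenobiotic response and heme, male-biased and female-biased genes, acute phase, interferon, cell division) also had 0 called, with medians between -0.14 for xenobiotic response and 0.069 for male-biased genes.

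**Figure D4:**
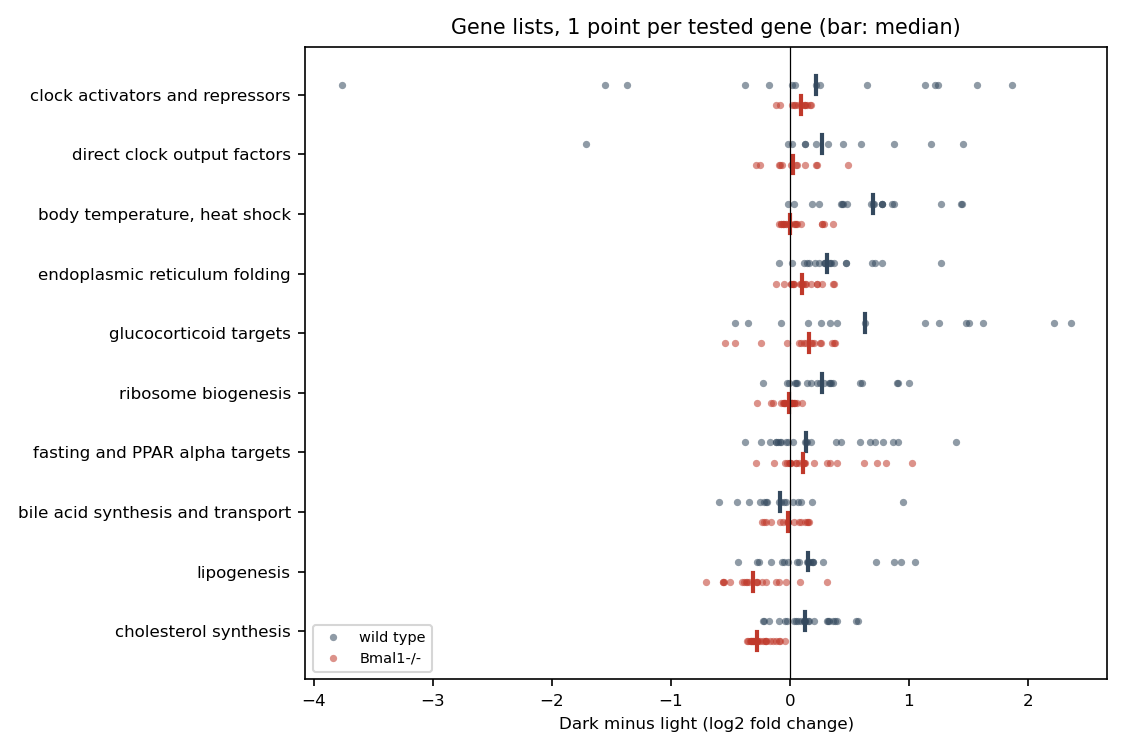
Log2 change from light to dark (x axis) of the tested genes of 10 lists (rows), wild type in dark blue and Bmal1-/- in red, with bars at the medians. The red heat shock points gather near 0 (median 0.0032) where the blue ones lie to the right (0.70), and the red lipogenesis and cholesterol points lie left of 0 (medians -0.31 and -0.27).

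The genes with the smallest unadjusted p in Bmal1-/- are described without a call, since each had an adjusted p of 0.951 or more. On the higher side they were Sntb2, 2810013P06Rik, Lrig3, Wdr91, Ubxn8, Ctif, Cpsf6, Sephs2, Fbxl12 and 2510039O18Rik. Sntb2, a syntrophin, ran from 5.99 to 11.2 CPM (median 7.99) in the light libraries and from 7.24 to 16.5 CPM (median 10.6) in the dark libraries, with much overlap and a change of 0.397 (SE 0.099, p 2.73e-04). Sephs2, which makes selenophosphate for selenoproteins, ran from 258 to 429.5 CPM (median 364) in the light libraries and from 351 to 501 CPM (median 426) in the dark libraries and had 0.19 (SE 0.065). It had -0.32 in wild type, and the genotypes differed (adjusted p 0.0139). Lrig3, a membrane protein with leucine-rich repeats, had 0.36 (SE 0.11) against -0.26 (0.00679), and Fbxl12, an F-box gene, had 0.32 against -0.298 (0.0127). In these 3 genes the signs were opposite and neither genotype alone passed. On the lower side they included Tirap, Pgghg, Sri, Gm11942, Kctd2, Papss2, Mrpl15, Cptp and Pex14. Tirap, an adapter of Toll-like receptors, ran from 23.3 to 40.8 CPM (median 30.9) in the light libraries and from 18.02 to 34.3 CPM (median 24.1) in the dark libraries, with -0.33 (SE 0.089) against 0.13 (0.0297). Papss2, which makes the sulfate donor, ran from 72.7 to 118 CPM (median 97.2) in the light libraries and from 51.8 to 120.00 CPM (median 71.8) in the dark libraries, with -0.33 (SE 0.11) and no called difference (0.117). Mrpl15, a mitochondrial ribosomal protein, had -0.24 against 0.195 (0.019), and Kctd2 had -0.31 against 0.203 (0.0229).

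Gm11942 had the largest of these changes and an all or none pattern. In the light 11 of 18 libraries had between 518 and 1432 CPM and 7 had between 15.02 and 22.4 CPM, while in the dark 5 had between 543 and 972 CPM and 13 between 10.1 and 24.2 CPM. No library lay between these levels, and all 36 wild-type libraries were at 29.2 CPM or below. The log2 change of -2.36 (SE 0.69, p 0.00282) therefore follows how many high libraries each time had. Rps3a3 split likewise, at 126 to 573 CPM in 10 light and 9 dark libraries and at 1.18 to 5.30 CPM in the others. Gm4987 was above 10 CPM in 10 light and 7 dark libraries. The symbols are of predicted genes and a ribosomal protein copy, so reads shared with other loci are possible. Every Bmal1-/- library of replicates 1 and 2 was at the low Gm11942 level, while replicates 3 to 6 held both levels. The source of these levels was not tested.

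The test for any difference among the 6 times called 3 of 12126 genes (0.0247%) in Bmal1-/-, with 476 at an unadjusted p under 0.05, against 1411 of 11964 (11.8%) in wild type. Xist and Slc22a26 were among them. Xist (adjusted p 1.74e-04) was high in ZT22 replicate 6 alone. Slc22a26, an organic anion transporter (adjusted p 0.00203), had 35.3 CPM in ZT18 replicate 5 and at most 4.39 CPM in the other 5 of that time. Without ZT18 replicates 5 and 6, 2 genes were called (Dmbt1 and Xist). Saa2, an acute phase protein gene with near copies, missed the threshold (0.055), with 429 CPM in ZT2 replicate 4 and at most 25.7 CPM in the other 35 libraries.

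**Figure D5:**
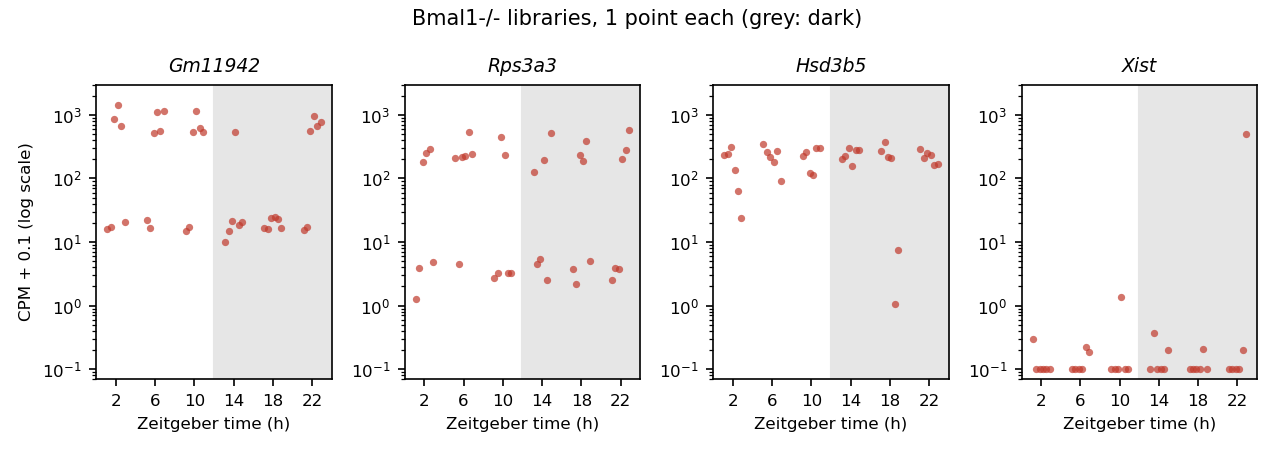
Bmal1-/- levels of 4 genes in CPM plus 0.1 on a log scale (y axis) against zeitgeber time in hours (x axis), 1 point per library and grey for the dark. Gm11942 and Rps3a3 fall into a high and a low band, with all 6 Gm11942 values of ZT18 in the low one, while the most extreme values of Hsd3b5 and Xist are those of 1 or 2 dark libraries.

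The 3′ ends themselves, the polyadenylation sites, were tested 1 by 1. Of 20191 sites tested in Bmal1-/-, 0 were called between dark and light (0%), with 626 (3.1%) at an unadjusted p under 0.05 by edgeR, against 704 of 19479 (3.61%) in wild type. Site usage is the share of a gene's site counts at 1 site, tested against the gene total. In Bmal1-/- 0 of 13589 sites were called (0%), with 342 (2.52%) at an unadjusted p under 0.05 by edgeR and an interval within 1.5-fold for 10915 (80.3%). In wild type 12 of 13124 were called (0.0914%), and 8 of 13102 without the library high in Xist. The change of usage differed between genotypes at 4 of 13429 (0.0298%), in Errfi1, Slc38a4 (2 sites) and Mlxipl.

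Errfi1, an inhibitor of the epidermal growth factor receptor, used its site at chr4:150868297-150868426 for 18.9% to 40.95% of its reads in the Bmal1-/- light libraries (median 26.1%). In the dark it was 15.4% to 29.3% (median 24.9%), overlapping the light. In wild type the medians were 25.3% in the light and 33.1% in the dark, and the log2 usage changes were -0.15 and 0.46 (difference adjusted p 2.57e-04). Slc38a4, an amino acid transporter, used its site at chr15:96994809-96995010 for a median of 21.2% in the light and 23.5% in the dark in Bmal1-/-. In wild type it was 31.5% and 23.7% (difference adjusted p 0.00211). The other Slc38a4 site, at chr15:96996747-96997035, held most of the remaining reads and moved the opposite way. Mlxipl, which encodes the glucose-responsive factor ChREBP, used its site at chr5:135139613-135139774 for 23.1% and 23.8% in Bmal1-/- and 25.9% and 20.6% in wild type (0.00324). The usage site with the smallest unadjusted p in Bmal1-/- was in Zbtb7a, at chr10:81151241-81151299, with medians of 14.2% and 17.8% and a log2 change of 0.33 (SE 0.081), which did not pass. Positions are those of the authors' site list, on mm10 per the submitters' processing notes.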

How the data were processed

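Counts per gene and per polyadenylation site were deposited by the authors as whole numbers for each library, and STAR 2.4.2a, edgeR, HOMER, mm10 and GRCm38.p5 are named in the submitters' processing notes. The steps that link these tools are not given in the sources used here. Deposited counts of the 36 Bmal1-/- and 36 wild-type total RNA libraries were used. Features averaging 10 or more counts a library were tested by edgeR 4.0.16 under R 4.3.3 (robust quasi-likelihood fit, TMM scaling), as the mean of 3 dark minus the mean of 3 light time-point means. The threshold was a Benjamini-Hochberg adjusted p of 0.05 over all features tested, and intervals are 95%. The genotype difference was an interaction over 12 groups of libraries. Usage took sites with at least 5% of their gene, in genes with at least 2 of them and 50 or more counts on average, with the log of the gene total plus 0.5 as offset. Of 29199 filtered sites, 26606 were given to 1 gene by position. CPM is a count divided by the library's total gene count and scaled to a common size. DESeq2 1.42.0, limma 3.58.1 with quality weights, other scaling and filters, replicate subsets and a replicate block were tried, and scripts were tested on simulated data. Genes named are the listed ones, the 10 smallest p in each direction in Bmal1-/-, the largest 10 in each direction in wild type, the largest 5 interactions in each direction, the 10 smallest p over any time, and the 5 smallest usage p, averaging 50 counts or more (usage 100). Members and lists were chosen with earlier results of these data known. Some genes that the rule names are not reported here. Nuclear and polysomal libraries were not used here. No 2 libraries of a group were identical (0 of 180 pairs).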

Additional observations from a re-analysis of the deposited data

Results flagged for a closer look

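In 16 of 180 groups of 6 Bmal1-/- libraries at 1 time (30 genes), the highest or lowest library lay far from the others by Dixon's 95% value. For normally distributed values chance flags about 1 in 20 groups. The genes other than Arntl were picked for a small p in these libraries, which 1 extreme library can give. The 16 of 180 can therefore not be compared with that rate. At ZT2, replicate 4 had 16.4 CPM of Lrig3, 429 CPM of Saa2 and 567 CPM of Saa1, and replicate 1 was low in Mrpl15 (54.9 CPM). At ZT10, replicate 1 had 21.0 CPM of Ctif, and replicate 4 had 1.28 CPM of Xist. At ZT14, replicate 4 had 543 CPM of Gm11942 and replicate 5 had 8.66 CPM of Tmem98. At ZT18, replicate 5 had 35.3 CPM of Slc22a26, replicate 6 had 20.8 CPM of Ctif, and replicate 3 had 81.0 CPM of Mrpl15. At ZT22, replicate 6 had 491 CPM of Xist and 8.32 CPM of Ikbke, replicate 2 had 19.8 CPM of Saa2 and 68.6 CPM of Saa1, and replicate 4 was low in Fbxl12 (6.81 CPM).

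The change from light to dark differed between Bmal1-/- and wild type by the test of that difference, and the sizes on the log2 scale, Bmal1-/- minus wild type, were 3.64 for Nr1d1, 1.68 for Calcoco1, 1.6 for Fbxo21, 1.47 for Nr1d2 and 1.45 for Dbp. They were -2.16 for Cdkn1a, -2.03 for Acnat2, -1.92 for Angptl8, -1.71 for Cry1 and -1.57 for 9030619P08Rik. For site usage they were -0.606 for Errfi1 (start 150868297), -0.225 and 0.59 for the Slc38a4 sites (starts 96996747 and 96994809) and 0.454 for Mlxipl (start 135139613).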

How the results depend on the processing

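The Bmal1-/- dark against light test called 0 genes, 0 sites and 0 usage sites under all alternatives run for each, with 315 to 738 genes at an unadjusted p under 0.05 in the settings that used the same count minimum. For any difference among times (3 genes) the count was 5 with all genes of at least 1 count, 1 with the replicate block, 0 in replicates 1 to 3 alone, 0 in replicates 4 to 6 alone, 1 without libraries high in Xist, 10 with both genotypes in 1 fit, 0 by limma and 0 to 3 with a replicate left out. With both genotypes in 1 fit, ZT18 against ZT6 called 1 gene in Bmal1-/-. Wild type (1104) called 412 in replicates 1 to 3, 403 in replicates 4 to 6 and 632 to 993 with a replicate left out. The genotype difference (278) called 171 genes at the lower count minimum, 545 with the replicate block, 36 in replicates 1 to 3, 169 in replicates 4 to 6, 487 by limma and 103 to 328 with a replicate left out. Wild-type usage (12) fell to 0 in replicates 1 to 3, 2 in replicates 4 to 6 and 4 to 10 with a replicate left out, and the usage difference (4) was 2, 1 and 3 to 4. The cause of these shifts was not tested, and the subsets hold fewer libraries. Of the 30 called values of single genes, 0 changed sign. Values without a call did: 253 of 441 single-gene values and 13 of 22 list medians changed sign in at least 1 setting, with interferon genes running from -0.285 to 0.213 and female-biased genes from -0.66 to 0.123. The genotype difference had 149 genes higher and 129 lower, against 12 and 24 in replicates 1 to 3 and 133 and 141 without ZT18 replicates 5 and 6. Replicate numbers did not meet the criterion for pairing, a correlation over 0.1 in every pair (lowest -0.157 in Bmal1-/-). Same-numbered libraries still deviated together more than others, with a mean r of 0.184 against -0.0357 in Bmal1-/- (65 of 90 pairs over 0.1, 15 of 36 libraries best with their own number) and 0.234 against -0.0467 in wild type (74 of 90, 25 of 36). Differently numbered libraries of 1 set (replicates 1 to 3 or 4 to 6) had a mean r of 0.0599 in Bmal1-/- and 0.12 in wild type. Across the 2 sets it was -0.0995 and -0.158. With the set as a factor, dark against light called 0 genes in Bmal1-/- and 1403 in wild type, and the genotype difference called 404. The main fit held no term for set or replicate. The replicate block called 0 genes between dark and light in Bmal1-/-, with 738 at an unadjusted p under 0.05. The settings without ZT18 replicates 5 and 6 and without libraries of low correlation were chosen after seeing the data. The latter left out 3 Bmal1-/- and 6 wild-type libraries, wild-type ZT2 replicate 4 among them. With these left out, wild type called 1224 genes between dark and light, Bmal1-/- called 0, and the genotype difference called 312. Precision limits single time pairs, where 6021 to 6438 of 12126 genes had an interval within 1.5-fold.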
